A study of Rattus norvegicus with 9 samples.

Results

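Potassium channel subunits were followed in rat brain as all genes whose symbol on the array begins with Kcn, apart from Kcne2, with the brightest row standing for a gene that had several. The rule gave 88 genes of 22093 with a single symbol, and 79 of the 88 passed the filter on signal (15522 genes in all) and were tested. RNA of male rats was hybridised to Clariom D arrays in 3 groups of 3: hippocampus of both hemispheres taken 4 h after transcranial focal stimulation (TFS), which delivers current to the brain across the intact skull and here lasted 5 min at 300 Hz and 50 mA, the same tissue of sham rats, which were handled alike without current, and parietotemporal cortex of both hemispheres of sham rats. The labels used here give neither strain nor age. They do not state which arrays come from separate rats, so a p-value reflects only how far these samples spread, and bulk dissected tissue mixes all cell types of a region. Cortex of stimulated rats was not analysed here. Values are log2 array signals, in which a difference of 1 is a 2-fold difference of signal.

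Potassium channels let potassium leave or enter the cell and set the resting potential, the shape of the action potential and the rate of firing. Most are built of pore-forming alpha subunits (voltage-gated Kv, calcium- or sodium-activated, inward rectifier Kir and leak channels), to which auxiliary subunits bind and change gating and transport to the membrane. In the hippocampus the Kv4 channels with their calcium-binding partners carry a fast transient current in dendrites, the Kv7 channels encoded by the Kcnq genes carry the M-current that limits repetitive firing, and the G protein-gated Kir3 channels answer inhibitory transmitters.

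The arrays carried the markers of the labelled tissues. Of 5 tested markers of hippocampal neurons 4 were higher and 0 lower in sham hippocampus, with Prox1 of dentate granule cells at 1.89 log2 units (adjusted p = 1.82e-05), and all 5 tested markers of cortical projection neurons were lower, with Lamp5 at -1.49 (adjusted p = 3.21e-04). The mean of the hippocampal markers was taken over all 6 measured, the untested Lct included. It ran from 7.10 to 7.21 on sham hippocampal arrays and from 6.25 to 6.27 on cortical ones. That of the cortical markers ran from 7.13 to 7.27 on sham hippocampal and from 8.07 to 8.30 on cortical arrays. The part of cell makeup in the results that follow was not tested. Array medians lay between 4.95 and 5.04. The sham cortical and sham hippocampal arrays numbered 1 stood apart from the others on the second principal component, and counts are therefore given without them as well. The mean of 95% of the negative controls was under 7.57, and signals under that limit are called within the background range here. They give the direction and size of a signal difference and do not measure a ratio of transcript. This held for 50 of the 79 tested channel genes, and 29 had a mean above the limit (36.7%, against 28.8% of all genes tested). The 9 untested members, Kcne1l, Kcne3, Kcne4, Kcnj1, Kcnj13, Kcnj15, Kcnk16, Kcnu1 and Kcnv2, had mean signals between 2.89 and 4.91. RefSeq holds Kcne1l as a synonym of Kcne5, so these 2 symbols name a single gene.

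The first comparison asks how the channel genes differ between hippocampus and parietotemporal cortex of sham rats. Potassium channel genes differed between the regions, mostly with less signal in hippocampus: 34 of 79 passed the test, 9 higher and 25 lower in sham hippocampus. Among the lower ones were most genes of the ether-a-go-go family (Kcnh), the silent modifier subunits Kcnv1 and Kcnf1, leak channels of the Kcnk group and the sodium-activated channel Kcnt1. Among the higher ones were the Kv4 partner Kcnip2, the Kv1 partners Kcnab1 and Kcnab2 and the G protein-gated channel Kcnj6. The share that passed was 43.0%, against 12.4% of all 15522 genes tested. Higher calls made up 11.4% of the members, against 5.99% of all genes, and lower calls 31.6%, against 6.46%. Over 2-fold differences were called for 2 members, Kcnh5 and Kcnv1 (2.53%, against 0.747%), and an unadjusted p under 0.05 was found for 46 (58.2%, against 25.6%). Among genes above the background range 15 of 29 members passed (51.7%), against 21.6% of 4466 genes. The median difference was -0.06 over the 79 members and -0.0044 over all genes, and the median size of the difference was 0.20 over the members and 0.05 over all genes. In bulk tissue, fewer cells of a type and less RNA per cell cannot be told apart.

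The test was limma's moderated test over all 9 arrays, with p-values adjusted by Benjamini-Hochberg over all genes tested and a threshold of 0.05. Of the 34 calls 22 held whichever 1 of the 6 sham arrays was left out, 5 higher and 17 lower. Under every alternative that tested the gene 17 held, 4 higher and 13 lower. Among these, Kcnab3, Kcnb2, Kcnd1, Kcnh4 and Kcns1 were too dim for the filter at the 75th percentile of signal and were not tested under it. Without hippocampal sham array 2 or hippocampal sham array 3 the members that were higher numbered 5. Without both sham arrays numbered 1, a choice made after seeing the data, 8 were higher and 15 lower, and 21 of the 34 calls were kept. With the array number as a block, 8 were higher and 24 lower over all 9 arrays, with 29 of the 34 calls kept. That fit also grouped TFS arrays by number, although these did not deviate with like-numbered sham hippocampal arrays (correlations -0.111, -0.287 and -0.025). With the block over the 6 sham arrays, 4 were higher and 16 lower, with 19 kept. A fit of the same 6 arrays without the block had 5 higher and 18 lower. Counts over all genes moved as well, from 929 higher and 1002 lower in the main fit to 581 and 630 in this one. They were 500 and 482 with the block over the 6 sham arrays, and 933 and 992 with it over 9. Without both sham arrays numbered 1 they were 649 and 679. Without hippocampal sham array 2 or 3, 595 and 591 genes were higher. In 13 of the 34 calls both regions had a mean above the background range, in 5 only 1 region did, and in 16 neither did. The 5 were Kcnf1, Kcnh5, Kcnh7, Kcnk4 and Kcnv1, with cortex above the limit, and Kcnt1 was among the 16.

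**Figure D1:**
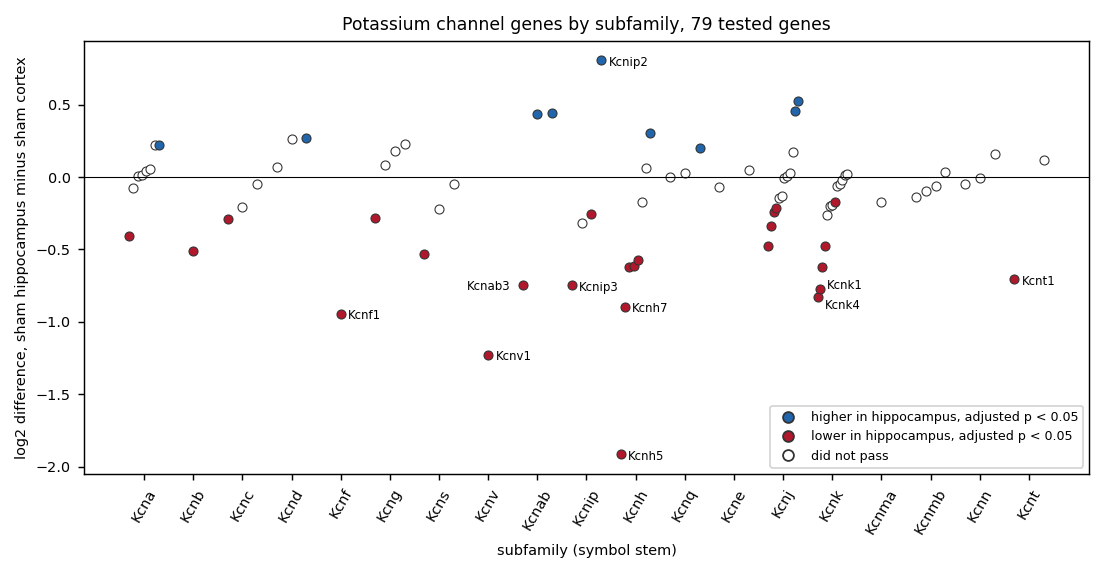
Log2 difference of signal (vertical axis, sham hippocampus minus sham cortex, n = 3 arrays each) of the 79 tested potassium channel genes, one point per gene, by symbol stem along the horizontal axis; filled points passed at an adjusted p under 0.05 by limma. Kcnh5 at -1.91 and Kcnv1 at -1.23 lie lowest and Kcnip2 at 0.80 highest, and Kcna, Kcnab, Kcnip, Kcnh and Kcnj hold filled points on both sides of 0.

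Several families held calls in both directions. Of 21 groups by function 16 held at least 1 call: 8 held lower calls only, 3 held higher calls only and 5 held both. The 5 were the Kv1 alpha subunits, the Kv1 beta subunits, the calcium-binding Kv4 partners, the ELK channels and the G protein-gated Kir3 channels. The 5 groups without a call were the Kcne, Kir6, BK alpha, BK beta and Kcnn genes, with 12 tested members in all.

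The Kcnh genes encode voltage-gated channels of the ether-a-go-go family, in 3 branches named EAG, ERG and ELK. Of 8 tested members 5 were lower in hippocampus, 1 was higher and 2 did not pass, and the median difference was -0.60. Kcnh5, an EAG channel, had the largest difference of all 79 members. Kcnh5 measured 6.33, 6.16 and 6.41 in TFS hippocampus, 6.31, 6.36 and 6.27 in sham hippocampus and 8.63, 8.07 and 7.98 in sham cortex (log2 signal, arrays 1 to 3). Hippocampal arrays of both treatments lay far below every cortical array, and TFS and sham arrays overlapped. The difference of Kcnh5 between sham hippocampus and sham cortex was -1.91 (SE 0.16, 95% confidence interval -2.29 to -1.54, adjusted p = 3.95e-04 by limma). The hippocampal signal was within the background range and the cortical one above it. Kcnh1, the other EAG gene, lay on the same side (difference -0.62, adjusted p = 0.0066; with the block over the 6 sham arrays adjusted p = 0.0757, and without both sham arrays numbered 1 adjusted p = 0.052).

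The ERG channels carry a slowly deactivating current, and of their 3 genes only Kcnh7 passed. Kcnh7 measured 7.43, 7.18 and 7.61 in TFS hippocampus, 7.38, 7.55 and 7.59 in sham hippocampus and 8.61, 8.41 and 8.18 in sham cortex (log2 signal, arrays 1 to 3). All hippocampal arrays were lower than all cortical ones. The difference of Kcnh7 between sham hippocampus and sham cortex was -0.89 (SE 0.14, 95% confidence interval -1.21 to -0.58, adjusted p = 0.0052 by limma). Its adjusted p was 0.0672 with the block over the 6 sham arrays and 0.0524 without both sham arrays numbered 1. Kcnh2 differed by -0.17 (adjusted p = 0.0691; 0.0393 with the block over 9 arrays, 0.0708 with the block over the 6 sham arrays and 0.0133 without hippocampal sham array 1), and Kcnh6 by 0.06 (adjusted p = 0.291).

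The ELK channels open at potentials near rest in neurons. Kcnh3 measured 8.26, 8.21 and 8.25 in TFS hippocampus, 8.20, 8.19 and 8.05 in sham hippocampus and 8.76, 8.60 and 8.78 in sham cortex (log2 signal, arrays 1 to 3). No hippocampal array of Kcnh3 reached the lowest cortical one. The difference of Kcnh3 between sham hippocampus and sham cortex was -0.57 (SE 0.06, 95% confidence interval -0.71 to -0.44, adjusted p = 7.98e-04 by limma). Kcnh4 was lower as well, at -0.62 (adjusted p = 0.0019), with both regions in the background range. Kcnh8 was the exception in the family, higher in hippocampus at 0.31 (adjusted p = 0.0389) with signals near 5 in both regions. Its call was lost whichever 1 of the 6 sham arrays was left out (adjusted p 0.0548 to 0.109) and with the block over 9 arrays (adjusted p = 0.0612).

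The promoter of Kcnh5 is shown because that gene had the largest difference, and those of Kcnip2, Kcnip3, Kcnj6 and Kcnj9 because these are relatives with opposite differences between the regions. Each runs 5′ to 3′ from 250 bases before to 50 bases after the gene's start, from RefSeq on GRCr8, the minus strand in each case, with GC boxes (GGGCGG or its reverse complement) in capitals. Kcnh5 lies at chr6:99643807-99644106, Kcnip2 at chr1:254613849-254614148, Kcnip3 at chr3:135195361-135195660, Kcnj6 at chr11:47778299-47778598 and Kcnj9 at chr13:87320244-87320543.
Kcnh5: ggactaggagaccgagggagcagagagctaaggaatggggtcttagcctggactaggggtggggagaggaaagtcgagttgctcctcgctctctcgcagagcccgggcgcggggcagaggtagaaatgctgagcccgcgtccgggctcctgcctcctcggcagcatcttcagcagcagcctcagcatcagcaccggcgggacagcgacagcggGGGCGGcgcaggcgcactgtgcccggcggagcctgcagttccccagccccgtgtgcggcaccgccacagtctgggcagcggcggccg
Kcnip2: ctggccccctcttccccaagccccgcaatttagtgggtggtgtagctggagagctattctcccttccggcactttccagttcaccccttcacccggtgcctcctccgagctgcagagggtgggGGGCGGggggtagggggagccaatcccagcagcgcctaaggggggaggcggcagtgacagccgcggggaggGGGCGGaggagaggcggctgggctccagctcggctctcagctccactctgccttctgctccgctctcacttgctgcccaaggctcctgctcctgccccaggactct
Kcnip3: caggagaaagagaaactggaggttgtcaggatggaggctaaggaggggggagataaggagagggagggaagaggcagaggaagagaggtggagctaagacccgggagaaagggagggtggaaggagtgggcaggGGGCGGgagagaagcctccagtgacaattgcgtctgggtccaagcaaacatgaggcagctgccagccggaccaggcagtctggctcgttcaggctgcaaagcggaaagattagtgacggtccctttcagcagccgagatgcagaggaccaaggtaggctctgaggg
Kcnj6: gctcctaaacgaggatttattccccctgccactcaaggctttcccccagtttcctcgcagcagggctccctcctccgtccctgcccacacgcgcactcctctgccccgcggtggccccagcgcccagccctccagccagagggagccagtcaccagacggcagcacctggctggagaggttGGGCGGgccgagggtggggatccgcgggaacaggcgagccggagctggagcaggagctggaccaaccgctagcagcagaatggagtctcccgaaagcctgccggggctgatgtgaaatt
Kcnj9: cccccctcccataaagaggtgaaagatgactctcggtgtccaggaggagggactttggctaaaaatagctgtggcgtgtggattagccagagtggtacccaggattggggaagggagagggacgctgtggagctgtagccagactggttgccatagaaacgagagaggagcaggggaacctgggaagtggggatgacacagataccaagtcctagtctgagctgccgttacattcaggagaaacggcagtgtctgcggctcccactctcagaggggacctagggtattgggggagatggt
In these windows Kcnip2 has 2 GC boxes, Kcnh5, Kcnip3 and Kcnj6 have 1 each, and none was found in that of Kcnj9. Promoters were matched for 62 of the 88 members. A GC box was found on either strand in 31 of the 62 (50.0%), against 34.9% of 27457 rat promoters of this length, and the median GC content was 60.8%, against 52.3%. It was found in 3 of 7 matched promoters of genes higher in hippocampus, in 10 of 17 of genes lower in hippocampus and in 15 of 31 of tested genes that did not pass. The TATA box TATAAA was found in 2 of the 62 (3.23%, against 14.3%), the cyclic AMP response element TGACGTCA in 0 (against 1.91%) and the E-box CACGTG in 3 (4.84%, against 6.65%). Both strands were searched, and no motif holds another within its letters. A match is a string of letters and not a measured binding site.

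The Kv4 channels of the Kcnd genes carry the fast transient current of dendrites, and the KChIP proteins of the Kcnip genes bind them as calcium-sensing auxiliary subunits. Kcnip2 was higher in hippocampus and its relatives Kcnip3 and Kcnip4 lower. Kcnip2 measured 10.79, 10.92 and 10.88 in TFS hippocampus, 10.68, 10.67 and 10.66 in sham hippocampus and 9.99, 10.05 and 9.56 in sham cortex (log2 signal, arrays 1 to 3). Every hippocampal array exceeded every cortical one, and cortical array 3 lay below the other cortical arrays. The difference of Kcnip2 between sham hippocampus and sham cortex was 0.80 (SE 0.12, 95% confidence interval 0.53 to 1.08, adjusted p = 0.0041 by limma). The adjusted p was 0.0572 with the block over the 6 sham arrays. Kcnip2 has 4 rows on the array, and the region difference was 0.80 to 0.81 in 3 of them and 0.65 in the other.

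Kcnip3 encodes a KChIP that also acts in the nucleus as a calcium-regulated repressor, known as DREAM or calsenilin. Kcnip3 measured 9.89, 9.89 and 9.81 in TFS hippocampus, 9.67, 9.82 and 9.67 in sham hippocampus and 10.49, 10.48 and 10.44 in sham cortex (log2 signal, arrays 1 to 3). The cortical arrays lay close together and above all hippocampal ones. The difference of Kcnip3 between sham hippocampus and sham cortex was -0.75 (SE 0.04, 95% confidence interval -0.85 to -0.65, adjusted p = 1.04e-04 by limma). It had the smallest p of the members. Kcnip4 differed by -0.25 (adjusted p = 0.04). Its call was lost with the block over 9 arrays (adjusted p = 0.0526) and without cortical array 1 or 3 or any 1 hippocampal sham array (adjusted p 0.0817 to 0.123). Kcnip1, which did not pass, differed by -0.31 (adjusted p = 0.255), with hippocampal sham array 2 at 7.14 against 6.57 and 6.59 on the other sham arrays of hippocampus. Without that array its adjusted p was 0.0208.

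The Kv4 alpha subunits themselves all had positive differences. Kcnd1 was higher in hippocampus (0.27, adjusted p = 0.0062), within the background range. Kcnd2, the main dendritic Kv4 channel of pyramidal cells, differed by 0.27 without passing (adjusted p = 0.0712), although its arrays did not overlap between the regions. It passed without cortical array 3 (adjusted p = 0.0132) and with the block over 9 arrays (adjusted p = 0.0217), but not with the block over the 6 sham arrays (adjusted p = 0.0992). Kcnd3 differed by 0.07 (adjusted p = 0.541).

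Outside the Kcn symbols, 20 partners of potassium channels were followed, of which 19 were tested, 3 were higher and 2 lower in hippocampus, with a median of -0.05. Of all genes tested, 5.99% were higher and 6.46% lower. The dipeptidyl peptidase-like proteins Dpp6 and Dpp10 are transmembrane subunits of the same Kv4 complexes, and they split like the KChIPs. Dpp6 measured 9.96, 9.98 and 10 in TFS hippocampus, 9.85, 9.85 and 9.88 in sham hippocampus and 9.48, 9.55 and 9.55 in sham cortex (log2 signal, arrays 1 to 3). The groups did not overlap for Dpp6, and the difference between sham regions was 0.33 (SE 0.02, adjusted p = 2.62e-04). Dpp10 measured 7.05, 6.66 and 6.76 in TFS hippocampus, 6.68, 7.05 and 6.83 in sham hippocampus and 8.15, 8.17 and 8.19 in sham cortex (log2 signal, arrays 1 to 3). For Dpp10 the cortical arrays lay far above the hippocampal ones, and the difference was -1.32 (SE 0.12, adjusted p = 4.59e-04). Lgi1, a secreted protein of Kv1 complexes at the axon, was higher in hippocampus (0.58, adjusted p = 0.0085), and the scaffold Dlg1 was lower (-0.62, adjusted p = 0.0044). The Lgi1 receptor Adam23 was higher by 0.15 (adjusted p = 0.0251), a call lost without cortical array 2 or 3 or any 1 hippocampal sham array (adjusted p 0.059 to 0.0869) and with the block over 9 arrays (adjusted p = 0.064).

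**Figure D2:**
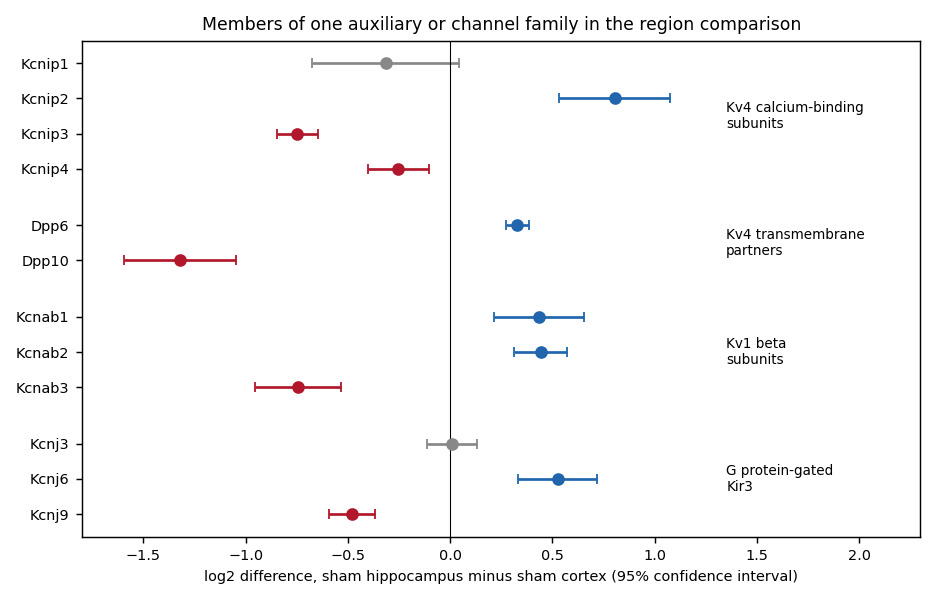
Log2 difference of signal between sham hippocampus and sham cortex (horizontal axis, n = 3 arrays each) with 95% confidence intervals from limma, for members of 4 sets of related subunits down the vertical axis; blue points lie above 0, red ones below 0 and grey intervals hold 0. Kcnip2, Dpp6, Kcnab1, Kcnab2 and Kcnj6 lie above 0, and Kcnip3, Kcnip4, Dpp10, Kcnab3 and Kcnj9 below 0.

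Kv1 channels sit along axons and at terminals and set the threshold for firing, and the cytoplasmic beta subunits of the Kcnab genes bind them and can add fast inactivation. All 3 beta subunits passed, 2 higher and 1 lower. Kcnab2 measured 9.58, 9.58 and 9.66 in TFS hippocampus, 9.50, 9.47 and 9.53 in sham hippocampus and 9.18, 8.96 and 9.04 in sham cortex (log2 signal, arrays 1 to 3). Hippocampal arrays of Kcnab2 were all above the cortical ones. The difference of Kcnab2 between sham hippocampus and sham cortex was 0.44 (SE 0.06, 95% confidence interval 0.31 to 0.57, adjusted p = 0.0021 by limma). Kcnab1 was higher by 0.43 (adjusted p = 0.0234), a call lost without any 1 of the 3 hippocampal sham arrays (adjusted p 0.0583 to 0.0874) and with the block over the 6 sham arrays (adjusted p = 0.0954).

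Kcnab3 went the other way. Kcnab3 measured 6.26, 6.18 and 6.25 in TFS hippocampus, 6.20, 6.09 and 6.08 in sham hippocampus and 7.04, 6.65 and 6.90 in sham cortex (log2 signal, arrays 1 to 3). Its hippocampal arrays lay below all cortical ones, with both regions in the background range. The difference of Kcnab3 between sham hippocampus and sham cortex was -0.75 (SE 0.09, 95% confidence interval -0.96 to -0.54, adjusted p = 0.0018 by limma). Among the 8 Kv1 alpha subunits 1 was higher, 1 lower and 6 did not pass. Kcna4, a fast-inactivating Kv1 channel, was higher in hippocampus (0.22, adjusted p = 0.0054), with both regions in the background range. Kcna2, an axonal delayed rectifier, was lower (-0.41, adjusted p = 0.0335). The call of Kcna2 was lost without any 1 hippocampal sham array (adjusted p 0.0758 to 0.116) and with the block over the 6 sham arrays (adjusted p = 0.109). Kcna1 differed by 0.22 (adjusted p = 0.142) and passed only without cortical array 1 (adjusted p = 0.0431) or without both sham arrays numbered 1 (adjusted p = 0.0321). The other Kv1 genes (Kcna3, Kcna5, Kcna6, Kcna7 and Kcna10) did not pass, with differences of -0.07 to 0.05.

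The silent subunits of the Kcnf, Kcng, Kcns and Kcnv genes form no channel alone and change the gating of Kv2 channels when they join them. Of 9 tested 4 were lower in hippocampus, 0 higher and 5 did not pass, with a median of -0.22. Kcnv1 measured 7.51, 7.55 and 7.63 in TFS hippocampus, 7.26, 7.44 and 7.55 in sham hippocampus and 8.77, 8.47 and 8.69 in sham cortex (log2 signal, arrays 1 to 3). Each hippocampal array of Kcnv1 lay below the lowest cortical array by a wide margin. The difference of Kcnv1 between sham hippocampus and sham cortex was -1.23 (SE 0.10, 95% confidence interval -1.45 to -1.002, adjusted p = 3.12e-04 by limma). Kcnf1 measured 7.19, 6.85 and 6.73 in TFS hippocampus, 7.09, 7.10 and 7.15 in sham hippocampus and 7.97, 8.06 and 8.15 in sham cortex (log2 signal, arrays 1 to 3). The TFS arrays of Kcnf1 spread more widely than the sham ones, and all 6 hippocampal arrays lay below the cortical ones. The difference of Kcnf1 between sham hippocampus and sham cortex was -0.94 (SE 0.11, 95% confidence interval -1.20 to -0.69, adjusted p = 0.0015 by limma).

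Kcns1, a modifier known from sensory neurons, was lower at -0.53 (adjusted p = 0.0044) within the background range. Kcng3 was lower at -0.28 (adjusted p = 0.0195), also within the background range. Its call was lost without cortical array 2, cortical array 3 or hippocampal sham array 3 (adjusted p 0.0525 to 0.062) and with the block over the 6 sham arrays (adjusted p = 0.145). Kcns3, which did not pass (-0.22, adjusted p = 0.108), did so without cortical array 1 (adjusted p = 0.0437), and Kcng4 (0.18, adjusted p = 0.153) without cortical array 3 (adjusted p = 0.0291). Kcng1, Kcng2 and Kcns2 differed by 0.08, 0.23 and -0.05 without passing. Their partner Kcnb2, a Kv2 delayed rectifier, was lower in hippocampus (-0.51, adjusted p = 0.0028), also within the background range.

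The Kv3 channels of the Kcnc genes allow fast-spiking interneurons to repolarise quickly. Kcnc2 was lower in hippocampus (-0.29, adjusted p = 0.0118), with adjusted p = 0.094 under the block over the 6 sham arrays and adjusted p = 0.0894 without both sham arrays numbered 1. Kcnc1 differed by -0.21 without passing (adjusted p = 0.0738; 0.0291 without cortical array 2), and Kcnc4 by -0.05 (adjusted p = 0.599). Interneuron markers moved with region too: 3 of 5, namely Pvalb, Sst and Vip, were lower in hippocampus, and the mean of the 5 ran from 8.10 to 8.24 on sham hippocampal arrays and from 8.62 to 8.77 on cortical ones. Their part in these differences was not tested.

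**Figure D3:**
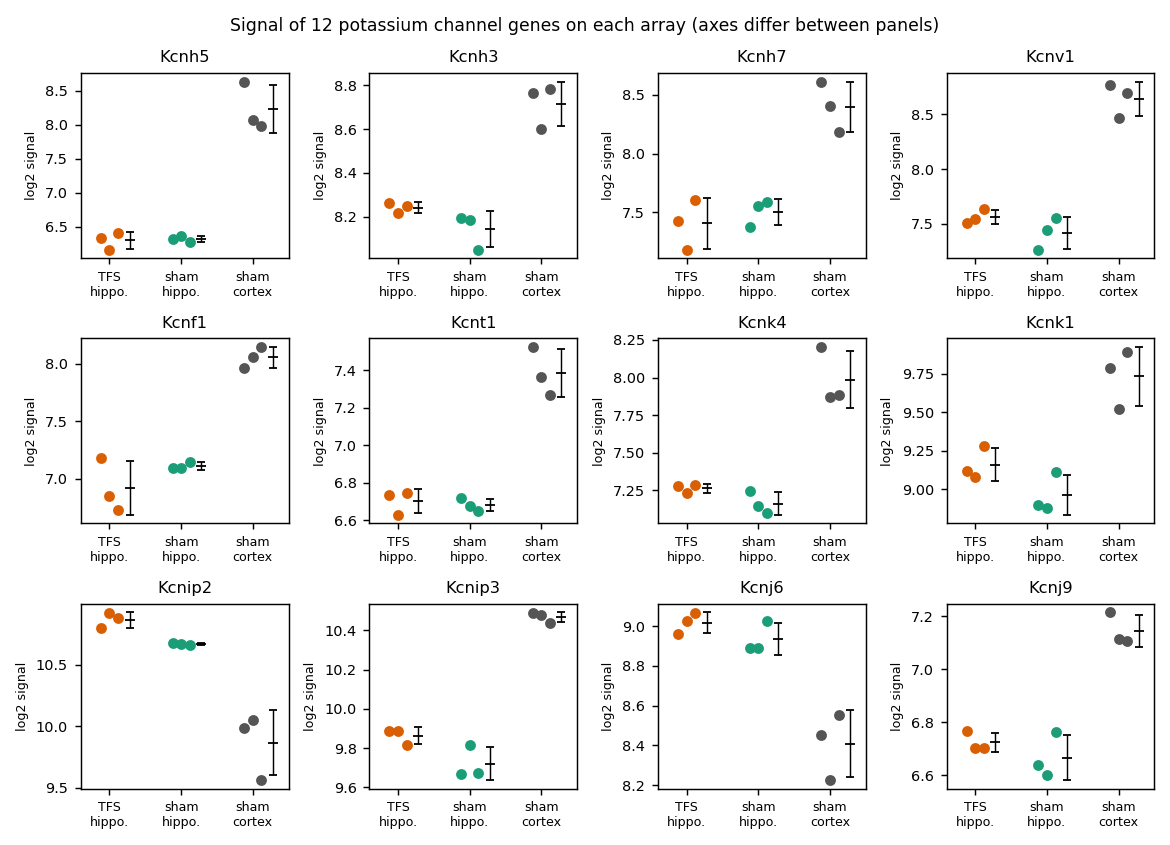
Log2 signal (vertical axis, range differs between panels) of 12 potassium channel genes on each array of TFS hippocampus, sham hippocampus and sham cortex (3 arrays each, one point per array); the bar beside the points gives the mean and SD. In all 12 panels the sham cortical arrays are separated from all hippocampal arrays, below them for Kcnip2 and Kcnj6 and above them for the other panels.

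Leak channels of the Kcnk genes have 2 pore domains per subunit and set the resting potential. Of 13 tested members 5 were lower in hippocampus, 0 higher and 8 did not pass, and 11 of the 13 differences were below 0, with a median of -0.19. Kcnk4 measured 7.28, 7.23 and 7.28 in TFS hippocampus, 7.24, 7.14 and 7.10 in sham hippocampus and 8.20, 7.87 and 7.88 in sham cortex (log2 signal, arrays 1 to 3). Kcnk4 encodes a mechanically gated leak channel, and its cortical arrays lay above all hippocampal ones. The difference of Kcnk4 between sham hippocampus and sham cortex was -0.82 (SE 0.09, 95% confidence interval -1.03 to -0.62, adjusted p = 0.0011 by limma). Kcnk1 (-0.77, adjusted p = 0.0036), which encodes a weak inward-rectifying leak channel, had an adjusted p of 0.0564 without both sham arrays numbered 1. Kcnk2, a stretch- and lipid-gated relative of Kcnk4, was lower at -0.62 (adjusted p = 0.0012), with both regions in the background range.

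The acid-sensitive leak channels Kcnk3 and Kcnk9 and their silent relative Kcnk15 all lay below 0. Kcnk9 was lower at -0.47 (adjusted p = 0.0445), a call lost without any 1 cortical array or hippocampal sham array 2 (adjusted p 0.0578 to 0.119) and with the block over 9 arrays (adjusted p = 0.0548). Kcnk15 was lower at -0.17 (adjusted p = 0.0333), with both regions in the background range. Its call was lost without cortical array 2 or any 1 hippocampal sham array (adjusted p 0.0581 to 0.103) and with the block over the 6 sham arrays (adjusted p = 0.109). Kcnk3 lay just outside the threshold (-0.19, adjusted p = 0.0506; 0.0111 without cortical array 2). Kcnk6 differed by -0.26 (adjusted p = 0.0575; 0.0219 without cortical array 3, 0.0189 with the block over 9 arrays and 0.0932 with the block over the 6 sham arrays), and its dimmer second row by -0.034. The other 6 leak channels that did not pass ranged from -0.20 to 0.02, with Kcnk12 at -0.20 (adjusted p = 0.067; 0.0305 with the block over the 6 sham arrays and 0.0812 over 9 arrays).

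The Kir3 channels of Kcnj3, Kcnj5, Kcnj6 and Kcnj9 open when G protein-coupled receptors such as those for GABA, adenosine or serotonin are activated. Kcnj6 was higher and Kcnj9 lower in hippocampus, while their common partner Kcnj3 differed little. Kcnj6 measured 8.96, 9.03 and 9.06 in TFS hippocampus, 8.89, 8.89 and 9.03 in sham hippocampus and 8.45, 8.22 and 8.55 in sham cortex (log2 signal, arrays 1 to 3). All hippocampal arrays of Kcnj6 were above all cortical ones. The difference of Kcnj6 between sham hippocampus and sham cortex was 0.53 (SE 0.08, 95% confidence interval 0.33 to 0.72, adjusted p = 0.0058 by limma). Kcnj9 measured 6.77, 6.70 and 6.70 in TFS hippocampus, 6.64, 6.60 and 6.76 in sham hippocampus and 7.22, 7.11 and 7.11 in sham cortex (log2 signal, arrays 1 to 3). All hippocampal arrays of Kcnj9 were below all cortical ones, within the background range. The difference of Kcnj9 between sham hippocampus and sham cortex was -0.48 (SE 0.05, 95% confidence interval -0.59 to -0.37, adjusted p = 8.68e-04 by limma). Kcnj3 differed by 0.0094 (95% confidence interval -0.11 to 0.13, adjusted p = 0.942), and its sign turned under quantile normalization and without cortical array 2, hippocampal sham array 2 or hippocampal sham array 3. Kcnj5 differed by -0.0087 (adjusted p = 0.908), and 5 of its 9 arrays shared a value exactly.

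The strong inward rectifiers Kir2 hold the resting potential near the potassium equilibrium, and 3 of their 4 genes were lower in hippocampus, all within the background range. The other gene, Kcnj14, lay above 0 without passing (0.17, adjusted p = 0.199). Kcnj2 differed by -0.34 (adjusted p = 0.0442), Kcnj4 by -0.24 (adjusted p = 0.0268) and Kcnj12 by -0.21 (adjusted p = 0.0463). These calls were fragile. Kcnj2 lost its call without any 1 cortical array, hippocampal sham array 1 or hippocampal sham array 2 (adjusted p 0.0631 to 0.146). Kcnj4 lost it without cortical array 1 or 2 or any 1 hippocampal sham array (adjusted p 0.0523 to 0.097) and with the block over the 6 sham arrays (adjusted p = 0.0659). Kcnj12 lost it without cortical array 1 or 3 or any 1 hippocampal sham array (adjusted p 0.0732 to 0.148) and with the block over 9 arrays (adjusted p = 0.0904).

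Glial Kir channels clear potassium that neurons release. Kcnj10 of astrocytes and oligodendrocytes differed by 0.03 (95% confidence interval -0.04 to 0.09, adjusted p = 0.62), and its partner Kcnj16 was higher in hippocampus at 0.45 (adjusted p = 0.0447) within the background range. The call of Kcnj16 was lost without cortical array 1 or 3 or any 1 hippocampal sham array (adjusted p 0.0728 to 0.145) and with the block over the 6 sham arrays (adjusted p = 0.124). Of 6 astrocyte markers 1, Gja1, was higher in hippocampus, with a list mean of 8.94 to 9.01 on sham hippocampal and 8.70 to 8.86 on cortical arrays. Of 4 oligodendrocyte markers 1, Mobp, was higher, with a list mean of 8.95 to 9.11 on sham hippocampal and 8.45 to 8.91 on cortical arrays. Their part in the Kcnj16 difference was not tested.

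Kcnj8 and Kcnj11, which form the pore of ATP-sensitive channels, did not pass (-0.13 and -0.15). Kcnj8 is known from pericytes, and among 6 markers of endothelium and pericytes 1, Cldn5, was lower in hippocampus, with a list mean of 7.63 to 7.73 on sham hippocampal and 7.84 to 7.98 on cortical arrays. Kcnj13 of choroid plexus stayed untested, at 2.89 in TFS hippocampus, 2.97 in sham hippocampus and 2.82 in sham cortex, whereas the mean of 5 choroid plexus markers ran from 6.31 to 7.80 on TFS hippocampal arrays, from 6.98 to 7.94 on sham hippocampal arrays and from 5.92 to 5.99 on cortical arrays.

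The M-current genes differed little. Kcnq3 was higher in hippocampus at 0.20 (adjusted p = 0.0355), a call lost without any 1 cortical array, hippocampal sham array 2 or hippocampal sham array 3 (adjusted p 0.0678 to 0.0985) and with the block over 9 arrays (adjusted p = 0.054). Kcnq5 differed by -8.5e-04 (95% confidence interval -0.24 to 0.24, adjusted p = 1), with a sign that turned in several refits.

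Channels gated by calcium or sodium respond to these ions inside the cell. Kcnt1, the sodium-activated channel Slack, was lower in hippocampus, with both regions in the background range. Kcnt1 measured 6.73, 6.63 and 6.75 in TFS hippocampus, 6.72, 6.67 and 6.65 in sham hippocampus and 7.52, 7.36 and 7.27 in sham cortex (log2 signal, arrays 1 to 3). All hippocampal arrays lay below all cortical ones. The difference of Kcnt1 between sham hippocampus and sham cortex was -0.70 (SE 0.06, 95% confidence interval -0.85 to -0.56, adjusted p = 5.00e-04 by limma). Its relative Kcnt2 differed by 0.12 (adjusted p = 0.28). The large-conductance calcium-activated channel Kcnma1 differed by -0.17 (adjusted p = 0.107) and its neuronal beta subunit Kcnmb4 by -0.14 (adjusted p = 0.208), neither past the threshold, with arrays that did not overlap between the regions for either gene. The groups did not overlap for 46 of 79 members (58.2%), against 24.1% of all genes tested. Kcnn3, a small-conductance channel, differed by 0.16 (adjusted p = 0.57), with a cortical SD of 0.33. No Kcne, Kcnmb or Kcnn gene passed.

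The second comparison asks whether the channel genes differ in hippocampus 4 h after TFS. No potassium channel gene passed: limma called 0 of 79 members, as it called 0 of 15522 genes (0%), and the lowest adjusted p among the members was 0.822. At an unadjusted p under 0.05 there were 4 members, Kcnip3, Kcns2 and Kcnk6 higher and Kcnk15 lower (5.06%, against 5.19% of all genes; 3 higher are 3.80%, against 4.37%). Differences were above 0 for 45 of 79 members (57.0%), against 61.3% of all genes. The median difference was 0.01 over the members and 0.01 over all genes, and no member differed by more than 0.20. The 95% confidence interval lay within a 1.5-fold difference of signal in either direction for all 79 members, against 99.2% of all genes, and within a 1.2-fold difference for 56 of 79 (70.9%, against 87.5%). For the 50 members within the background range, these bounds on signal do not bound a ratio of transcript. For 17 of the 79 members at least 3 arrays held an identical value, a mark of median polish, and intervals of such genes can be too narrow.

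The 6 Kcnip and Kcnab genes that differed between the regions had small positive differences after TFS, none past the threshold, beside the 61.3% of all genes above 0. The remaining Kcnip gene, Kcnip1, lay below 0 at -0.09 (adjusted p = 0.964 by limma). The sham hippocampal arrays serve in both comparisons. Kcnip3 was 9.89, 9.89 and 9.81 after TFS and 9.67, 9.82 and 9.67 in sham hippocampus, a difference of 0.14 (95% confidence interval 0.04 to 0.24, unadjusted p = 0.0118, adjusted p = 0.822). The arrays overlapped, through TFS array 3 and sham array 2. Kcnip2 differed by 0.19 (95% confidence interval -0.08 to 0.47, adjusted p = 0.923) with every TFS array above every sham array, and its 4 rows gave 0.19, 0.21, 0.21 and 0.10. Kcnip4 differed by 0.13 and Kcnab2 by 0.11, both with arrays that did not overlap (adjusted p = 0.923 for each). The Kv4 partner Dpp6, whose arrays did not overlap either, differed by 0.12 (unadjusted p = 0.0011, adjusted p = 0.598), and its relative Dpp10 by -0.03 (adjusted p = 0.997).

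Among the other members, Kcns2, a silent Kv2 modifier, differed by 0.18 (95% confidence interval 0.04 to 0.33, adjusted p = 0.904) and the leak channel Kcnk6 by 0.19 (adjusted p = 0.923), both within the background range with all TFS arrays above all sham arrays. The dimmer second row of Kcnk6 differed by 0.01. Kcnk15 was 6.32, 6.23 and 6.30 after TFS and 6.40, 6.39 and 6.40 in sham hippocampus, the single member whose TFS arrays all lay below its sham arrays (-0.11, adjusted p = 0.921). The largest differences by size were those of Kcnk1 at 0.20, Kcnip2 at 0.19 and Kcnf1 at -0.19, the last with TFS arrays at 7.19, 6.85 and 6.73 against 7.09, 7.10 and 7.15 in sham. Kcnk10 and Kcnq1 differed by 0.10 and -0.05, and Kcnh3 and Kcnc1, with arrays that did not overlap, by 0.10 and 0.07. For Kcnc1 all 3 TFS arrays held the identical value 7.615, barely above the highest sham array at 7.612. Groups did not overlap for 8 members (10.1%, against 9.77% of all genes), 7 higher (8.86%, against 8.57%) and 1 lower (1.27%, against 1.2%).

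The M-current channel Kcnq3 differed by -0.0095 (95% confidence interval -0.12 to 0.11), the dendritic Kv4 channel Kcnd2 by 0.05 (-0.13 to 0.24) and the G protein-gated channels Kcnj3 and Kcnj6 by 0.01 and 0.08. The astrocyte channel Kcnj10 differed by 0.04 (-0.03 to 0.10) and the calcium-activated channel Kcnma1 by -0.02 (-0.15 to 0.12). None of these 6 passed, at adjusted p of 0.923 or more. Of the 19 partner genes 0 passed, with a median of 0.03.

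**Figure D4:**
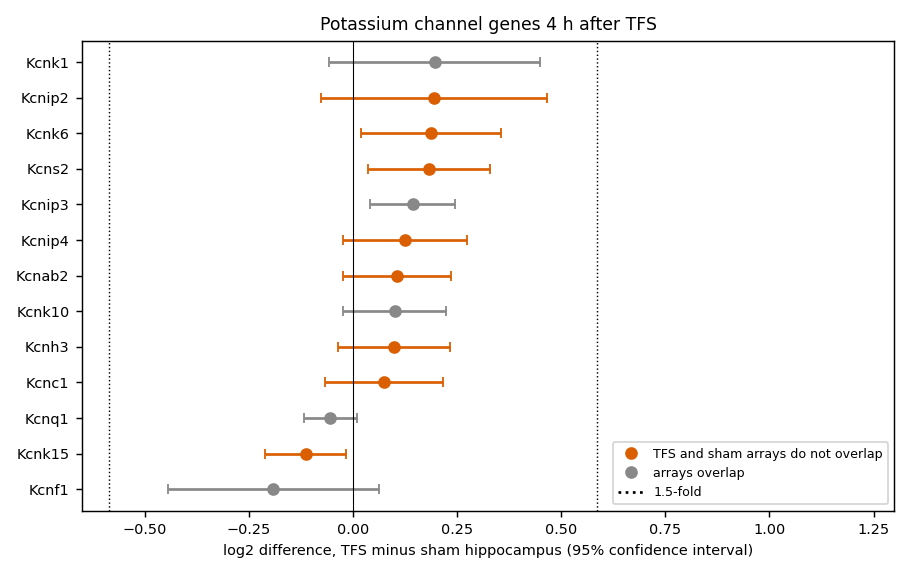
Log2 difference of signal between TFS and sham hippocampus (horizontal axis, n = 3 arrays each) with 95% confidence intervals from limma, for the 10 channel genes with the smallest p and 3 more whose arrays did not overlap, down the vertical axis. All 13 intervals lie inside the dotted lines of a 1.5-fold difference, and Kcnip3, Kcns2, Kcnk6 and Kcnk15 have intervals that leave out 0 before adjustment.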

How the data were processed

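The deposited log2 values, 1 per transcript cluster and array, came from Clariom D arrays hybridised with biotin-labelled total RNA; RMA (background correction, quantile normalization and median polish) and limma are named in the submitters' processing notes, and the annotation version is not given in the sources used here. Of 70580 rows 1738 controls were left out, and the 23446 rows with 1 gene symbol gave 22093 genes, each by its brightest row. The 15522 genes whose mean reached 4.99, the median over rows, were tested. The test was limma 3.58.1 in R 4.3.3 with a mean for each of the 3 groups of 3 arrays, two-sided, with Benjamini-Hochberg adjustment over all genes tested and a threshold of 0.05. The script was tested on simulated data. Arrays give no read depth, so the number of arrays and the distance from background limit precision.

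The background range ends at the mean signal under which 95% of 1153 negative control probe sets lie. Alternatives were other filters, scalings and row rules, array weights, a trended robust fit, the 6 arrays of a comparison alone, a replicate block and leaving out each array. Like-numbered sham hippocampal and cortical arrays deviated together (correlations 0.416, 0.202 and 0.252 across genes, unlike numbers -0.291 to 0.0604). The labels name no shared animal, so these pairs were taken from the data, and only for the replicate block. The main test did not pair the arrays. Channel genes and lists were chosen with earlier results of these data known. Named were up to 30 called genes by size in the region comparison, the 10 smallest p after TFS, the brightest gene of each symbol stem, the partners past the threshold and a set list of channels. Kcnj12 and the uncalled genes outside that rule were chosen after their values were seen. Promoters came from the RefSeq table on GRCr8.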

Additional observations from a re-analysis of the deposited data

How the results depend on the processing

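In the region comparison the members higher in hippocampus numbered 9, against 5 with the 6 sham arrays alone, 4 with the replicate block on those arrays and 5 to 8 with 1 array of the comparison left out. The lower ones numbered 25, against 16 with that replicate block, 15 without both sham arrays numbered 1 (chosen after seeing the data) and 19 to 22 with 1 array left out. Over all genes tested 929 were higher, against 581 with the 6 sham arrays alone, 500 with that block and 591 to 1101 with 1 array left out. Lower were 1002, against 482 with that block, 679 without both sham arrays numbered 1 and 690 to 1082 with 1 array left out. The median difference of -0.06 over the members was -0.049 with no filter on signal, -0.16 above the 75th percentile of signal and -0.0997 to -0.058 with 1 array left out. The replicate block as a fixed term ended or made no call on a member beyond those given with the results above. After TFS 0 members passed under every alternative, the replicate block included, whose numbers did not pair TFS with sham arrays (correlations -0.111, -0.287 and -0.025). The median TFS difference of 0.01 was 0.0073 with no filter, 0.032 above the 75th percentile, -0.0010 with median centring, 0.0026 with quantile normalization, 0.023 with array weights and 0.011 to 0.027 with 1 array left out. In the TFS comparison the sign of the difference turned under some alternative for 39 of 79 members. In the region comparison it turned for 16 of 79 members, 0 of them among the 34 that passed. Among the genes named by rule, Kcnd3 was -0.013 without both sham arrays numbered 1, Kcns2 was 0.0018 without hippocampal sham array 2, and Kcnj3 was -0.0039 with quantile normalization and -0.027, -0.0054 and -0.013 without cortical array 2, hippocampal sham array 2 and hippocampal sham array 3 (with 1 array left out it ran from -0.027 to 0.046). Kcnq5 was 0.0031 with median centring, 0.039 with array weights, 0.017, 0.083 and 0.070 without cortical array 1, cortical array 3 and hippocampal sham array 1, and 0.088 without both sham arrays numbered 1 (with 1 array left out it ran from -0.10 to 0.083). The cause of these moves was not tested, and some settings also hold a different number of arrays or genes. With 3 arrays a group and 50 of 79 members within the background range, sizes of the dim genes are the least certain.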
